A study of Capra hircus with 13 samples.

Results

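Genes for RNA-binding proteins that have been linked to N6-methyladenosine (m6A) without carrying a YTH domain were followed, *IGF2BP1*, *IGF2BP2*, *IGF2BP3*, *HNRNPA2B1*, *HNRNPC* and *ELAVL1*. They were chosen by name, with earlier results of these data known. They make 6 of the 18138 gene names listed in all 13 RNA-seq libraries of goat oocytes and embryos. The untreated material was 3 libraries of MII oocytes (mature oocytes arrested in meiosis), 3 of 4-cell stage and 3 of 8-cell stage embryos. The other 4 libraries were 8-cell stage embryos. Of these, 2 were injected with 20 uM *YTHDF2* siRNA as zygotes, 8 h after in vitro fertilization (IVF). The other 2 are labelled WT and are taken here as the negative control siRNA (NC) embryos of the study. Its methods name that control for the knockdown, but call the sequenced embryos only controls and give no dose for it. On this reading all 4 are called injected, and the NC embryos went through IVF, injection and culture as the knockdown embryos did. Each of these 4 libraries was a pool of embryos. Neither strain nor age of the animals is given in the sources used here, and no allele was altered, so the knockdown rested on the injected siRNA. Nothing in the labels says that replicates of an untreated stage came from separate animals, so p-values measure the spread between these libraries, which may be technical.

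m6A is a methyl mark on adenosines of mRNA. YTH domain proteins bind the mark directly, and YTHDF2 brings marked mRNAs to decay. IGF2BP proteins are KH domain proteins of the cytoplasm for which binding to marked mRNAs, stabilization and support of translation have been described. HNRNPA2B1 and HNRNPC are nuclear proteins of pre-mRNA splicing, and a methyl mark can open a hairpin so that HNRNPC reaches a nearby run of uridines. ELAVL1 (HuR) binds AU-rich and U-rich stretches of 3' UTRs, where it stabilizes the mRNA. In oocytes and early embryos, before the genome of the embryo is transcribed, the mRNA pool is set by stored maternal mRNAs and their decay.

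Values are FPKM, fragments scaled to the length of the exon model and to the mapped fragments of the library, so that levels of genes of unequal length can be set side by side within a library. The 9 untreated libraries held 26853876 to 42495116 fragments, recovered from the steps of the FPKM values. The depth of the injected libraries is unknown. The genes shared by the stage tables held 64.8 to 66.3% of the fragments of the MII libraries and 94.7 to 97.0% of those of the embryo libraries, so FPKM of the MII and the embryo libraries stand on unequal shares of their totals. Stages were compared with limma on log2(FPKM + 1) over the 9090 genes that reached 1 FPKM on average, and a gene was called at a Benjamini-Hochberg adjusted p under 0.05. Beside it stands a 2-fold rule, more than a 2-fold change at an unadjusted p under 0.05. Its cutoffs are those of the study, which set them on a test of counts, whereas here they are set on the limma values. Oocyte markers were present in all stages, with a summed FPKM of 1458 to 2570 in MII, 2200 to 3409 in 4-cell and 2506 to 2844 in 8-cell libraries. From MII to the 8-cell stage their means moved both ways. *ZP2* (520 to 852 FPKM), *BMP15* (354 to 613), *GDF9*, *ZP4* and *NLRP5* were higher. *ZP3* (109 to 38.8), *NPM2* (114 to 45.1) and *ZAR1* (2.45 to 1.45) were lower. Markers of genome activation such as *LEUTX* summed to 12.0 to 15.6 FPKM in MII, 56.5 to 131 in 4-cell and 344 to 1392 in 8-cell libraries. The 8 listed cumulus and granulosa cell markers, with *STAR* the highest and *AMH* at 0 in all 9 libraries, summed to 41.0 to 59.7 FPKM in MII, 51.3 to 65.2 in 4-cell and 84.3 to 127 in 8-cell libraries. They were thus higher at the 8-cell stage without overlap, as were *IGF2BP2*, *IGF2BP3* and *HNRNPA2B1* against MII, and their part in those results was not tested.

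The 6 genes held a fixed order of level in the MII libraries. In each of the 3, *IGF2BP3* lay above *HNRNPC*, followed by *ELAVL1*, *HNRNPA2B1*, *IGF2BP2* and *IGF2BP1*. In FPKM the level of *IGF2BP3* was at the 98.9 to 99.1 percentile of all 18138 genes in MII, while *HNRNPC* was at 98.8 to 98.9, and *IGF2BP1* at 0 to 15.0. In all 6 libraries of 4-cell and 8-cell stage embryos *HNRNPA2B1* lay above *ELAVL1*, the reverse of their order in MII. In both NC libraries the order was *HNRNPA2B1*, *HNRNPC*, *IGF2BP3*, *ELAVL1*, *IGF2BP1* and *IGF2BP2*.

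**Figure D1:**
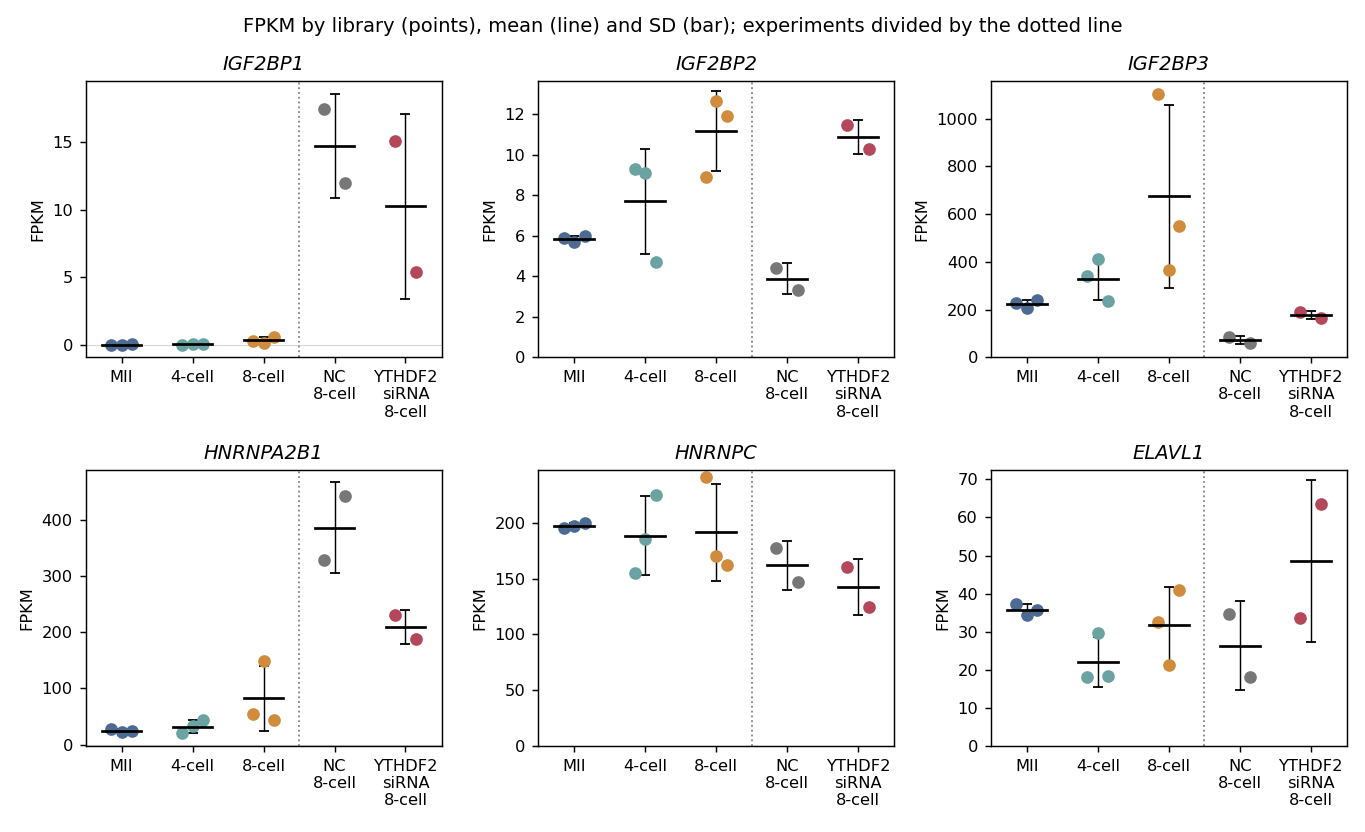
FPKM of the 6 genes (y axis, linear, 1 panel per gene) in each library (points) by group (x axis), with the group mean (line) and SD (bar). *IGF2BP1* lay at or under 0.595 FPKM in the untreated libraries and between 5.39 and 17.5 FPKM in the injected ones, while *HNRNPC* lay between 125 and 242 FPKM throughout.

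*IGF2BP3* was the main IGF2BP mRNA of the goat oocyte and early embryo. Its FPKM was 227, 207 and 239 in the MII libraries, 339, 411 and 235 in the 4-cell libraries, and 1106, 368 and 552 in the 8-cell libraries. Every 8-cell library was above every MII library, the 4-cell libraries overlapped both, and the 8-cell libraries differed from each other by as much as 3.01-fold. The rise from 225 ± 16.5 to 675 ± 384 FPKM (SD, n = 3) was 1.44 on the log2 scale (SE 0.36, limma adjusted p = 0.012). Without 8-cell replicate 1, the highest, it was 1.004 (adjusted p = 0.012). In that library *IGF2BP3* ranked at 25 among the 18138 genes. The same library was highest in the summed cumulus and granulosa cell markers, at 127 FPKM against 84.3 and 89.9 in the other 8-cell libraries. Its summed activation markers were the lowest of the 8-cell libraries, at 344 FPKM. The part of these markers in the result was not tested.

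*IGF2BP2* belongs to the same family and was a far smaller part of it. Its FPKM was 5.88, 5.70 and 5.99 in MII, 9.31, 9.10 and 4.69 in 4-cell, and 8.92, 12.6 and 11.9 in 8-cell libraries. Every 8-cell library was above every MII library, and 1 of the 3 4-cell libraries was below all of MII. The rise from MII to the 8-cell stage was 0.81 on the log2 scale (SE 0.27, limma adjusted p = 0.037). This call held under 10 of 21 alternatives. It was lost under the 4 other scalings, at an adjusted p of 0.25 to 0.36, and without any of the MII replicates, 8-cell replicate 2 or 8-cell replicate 3. It was also lost with a replicate block (adjusted p = 0.067) and without the filter on low values (0.059). In the reference table of gene positions, made for a later assembly than that of the authors, *IGF2BP2* overlaps *SENP2*. Whether counting used strand is not given in the sources used here, so reads of the overlap may belong to either gene.

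*IGF2BP1* was close to absent from the untreated libraries. Its FPKM was 0, 0 and 0.00944 in MII, 0, 0.0299 and 0.0140 in 4-cell, and 0.266, 0.102 and 0.595 in 8-cell libraries. These values rest on 1 fragment in all MII libraries, 3 in all 4-cell libraries and 70 in all 8-cell libraries, and a count of 0 allows up to 0.0418 FPKM in the 4-cell library where no fragment was seen. The 8-cell libraries were all above the others. Over pooled fragments the 8-cell level was 92.2 times the MII level, with an exact 95% interval of 16.0 to 3694, and 23.1 times the 4-cell level (7.60 to 115). Of the 70 fragments 45 lay in 8-cell replicate 3, and without it these ratios were 51.2 and 12.9. Without 4-cell replicate 1 or 2 the latter was 15.3 or 47.3. The 1 fragment of the MII side is below the 3 taken as detection, and without MII replicate 3, which holds it, there is no ratio. Intervals and limits of this kind cover counting error only, since the libraries carry no molecular identifiers. The gene was below the minimum of 1 FPKM and so outside the stage tests. Without that filter its change at the 8-cell stage against MII was 0.38 on the log2(FPKM + 1) scale (limma adjusted p = 0.0485). Set against 4-cell embryos it was 0.36 (0.14).

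Within the family, *IGF2BP3* made 97.3 to 97.6% of the summed IGF2BP FPKM in MII, 97.3 to 98.0% in 4-cell and 96.7 to 99.2% in 8-cell libraries. The share of *IGF2BP2* was 2.44 to 2.68% in MII and 0.80 to 3.32% in 8-cell libraries, so the lowest and the highest shares were both found at the 8-cell stage. The share of *IGF2BP1* was at most 0.105% in the untreated libraries. Such shares do not depend on a factor that scales a whole library. The log2 ratio of *IGF2BP3* over *IGF2BP2* was 5.04 ± 0.08 in MII and 5.66 ± 1.04 in 8-cell libraries (SD, n = 3), and the groups overlapped (exact permutation p = 0.4, two-sided, over the libraries). With 3 libraries against 3 this test cannot go below 0.1, and 16 such ratios were compared.

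**Figure D2:**
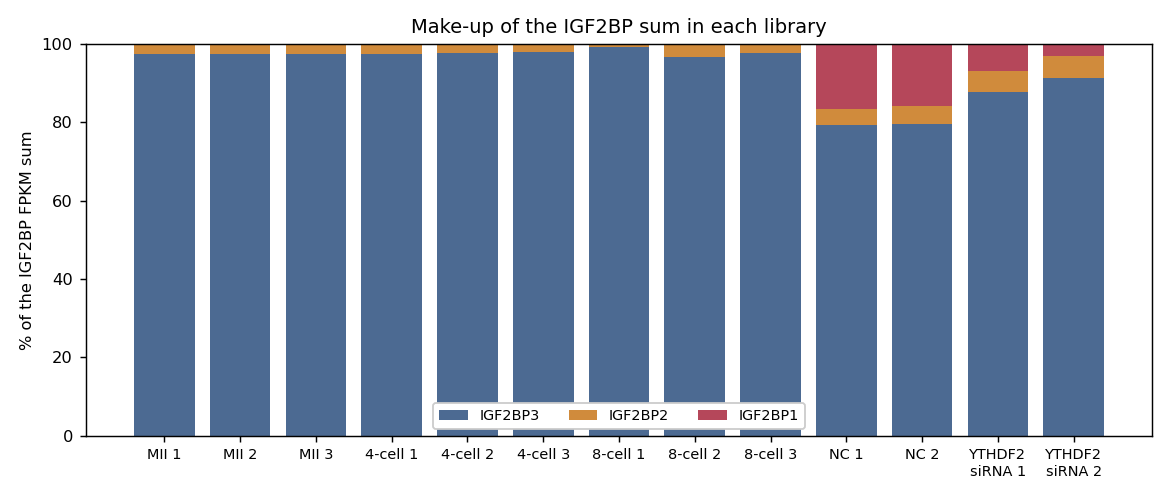
Share of the 3 family members in the summed IGF2BP FPKM (y axis, percent, stacked bars from 0 to 100) in each of the 13 libraries (x axis). *IGF2BP3* made 96.7% or more of the sum in the 9 untreated libraries, and *IGF2BP1* 15.9 to 16.6% in the NC libraries and 3.00 to 6.96% in the *YTHDF2* siRNA libraries.

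*HNRNPA2B1* was called higher at the 8-cell stage than in MII with the FPKM as deposited, a call lost under the 4 other scalings. Its FPKM was 27.7, 22.3 and 24.5 in MII, 19.8, 32.4 and 43.7 in 4-cell, and 53.7, 149 and 43.3 in 8-cell libraries. The 8-cell libraries were above all of MII, whereas 8-cell replicate 3 lay just under 4-cell replicate 3. Against MII the change at the 8-cell stage was 1.47 on the log2 scale (SE 0.44, limma adjusted p = 0.025), and 0.94 without 8-cell replicate 2 (adjusted p = 0.043). Under the 4 other scalings the adjusted p was 0.076 to 0.13, and without 1 MII replicate it was 0.056 to 0.066. 8-cell replicate 2, the highest in *HNRNPA2B1*, was also the highest in the activation markers, at 1392 FPKM in sum against 344 and 533 in the other two. Their part in the result was not tested.

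*HNRNPC*, which shares a role in pre-mRNA with *HNRNPA2B1*, was not called at either stage. Its FPKM was 195, 197 and 199.6 in MII, 155, 186 and 225 in 4-cell, and 242, 170.2 and 163 in 8-cell libraries. The embryo libraries lay on both sides of the MII libraries. The change from MII was -0.08 at the 4-cell stage (95% interval -0.52 to 0.36) and -0.07 at the 8-cell stage (-0.51 to 0.37) on the log2 scale. With library totals taken over the shared genes these were -0.63 (limma adjusted p = 0.041) and -0.60 (adjusted p = 0.040), so the level relative to MII rests on the scaling.

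The ratio of *HNRNPA2B1* over *HNRNPC* within a library is free of any factor that scales the whole library, apart from the 1 added to each FPKM. Quantile normalization is not such a factor. The log2 ratio was -2.77, -3.09 and -2.98 in MII, -2.90, -2.48 and -2.34 in 4-cell, and -2.15, -0.19 and -1.88 in 8-cell libraries. All 8-cell libraries were above all earlier ones. The mean difference was 1.54 between 8-cell and MII and 1.17 between 8-cell and 4-cell libraries, each with an exact permutation p = 0.1 (two-sided), the smallest that 3 against 3 libraries allow (adjusted p = 0.4 over 16 ratios). Leaving out 1 library at a time gave 0.93 to 1.91 against MII and 0.56 to 1.54 against the 4-cell stage. In the library with the highest ratio, *HNRNPA2B1* was at 0.877 times the level of *HNRNPC*, without pseudocount, while it was at 0.113 to 0.142 times in MII.

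**Figure D3:**
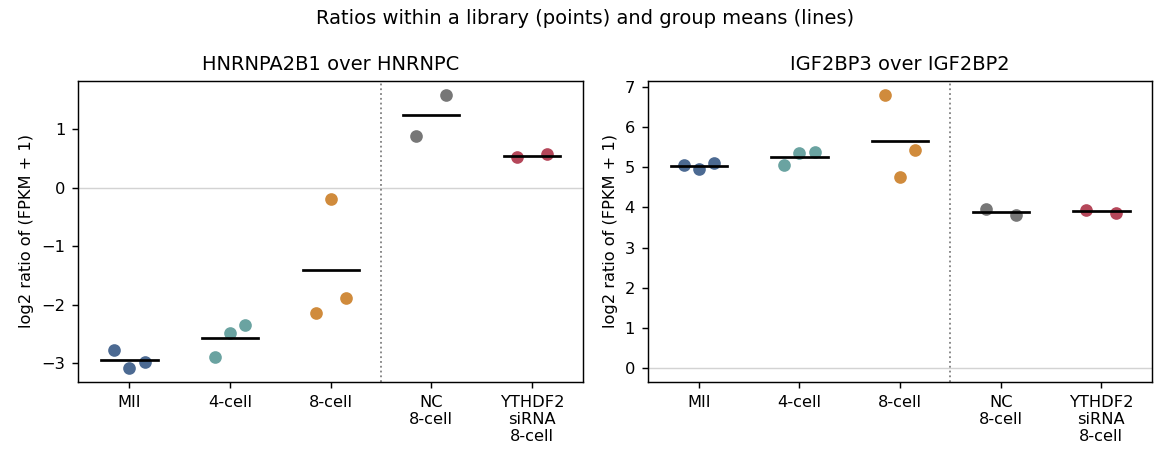
log2 ratio of (FPKM + 1) within each library (y axis) for *HNRNPA2B1* over *HNRNPC* (left) and *IGF2BP3* over *IGF2BP2* (right) by group (x axis), with points for libraries and lines for group means. The left ratio lay above all MII and 4-cell libraries in the 8-cell libraries, and above 0 in the injected ones only. The right ratio overlapped between the untreated stages.

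*ELAVL1* had its lowest mean in the 4-cell embryos. Its FPKM was 37.4, 34.3 and 35.7 in MII, 18.0, 29.6 and 18.3 in 4-cell, and 32.7, 21.2 and 41.1 in 8-cell libraries. All 4-cell libraries were below all MII libraries, while the 8-cell libraries spread over both. Against MII the 4-cell change was -0.72 on the log2 scale (95% interval -1.32 to -0.11, unadjusted p = 0.025, limma adjusted p = 0.071), which missed the threshold. It passed under 7 of 21 alternatives, with adjusted p from 0.0094 to 0.20 over all 21. Among the 7 were all 4 other scalings, at -1.26 to -1.01 (adjusted p of 0.0094 to 0.020). At the 8-cell stage the value was -0.22 (-0.83 to 0.39).

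Between the 4-cell stage and MII, 0 of the 5 tested members were called by limma, where 31.2% of all genes tested were. At an unadjusted p under 0.05 there was 1, *ELAVL1*, limma voom on the recovered fragments called 0, and the 2-fold rule held for 0, against 22.8% of all genes. Only *ELAVL1* had groups apart, in the lower direction, where 14.1% of all genes were. For the others the log2 fold changes were 0.51 (adjusted p = 0.32) for *IGF2BP3*, 0.29 (0.44) for *IGF2BP2*, 0.29 (0.66) for *HNRNPA2B1* and -0.08 (0.79) for *HNRNPC*. The signs of the first 3 turn under other library scalings. Leaving out 1 library gave 0.33 to 0.73 for *IGF2BP3*, 0.15 to 0.57 for *IGF2BP2* and 0.037 to 0.59 for *HNRNPA2B1*.

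Between the 8-cell stage and MII, 3 of 5 members were called, all higher, against a background of 37.4% called and 27.3% called higher. The 2-fold rule held for *IGF2BP3* and *HNRNPA2B1*, where 28.0% of all genes passed it, 19.8% in the higher direction. The same 3 genes had groups apart in the higher direction, as did 36.4% of all genes. The median log2 fold change of all genes was itself 0.37 in this comparison, and 0.06 after median-ratio rescaling. Relative to it the rises of *IGF2BP2*, *IGF2BP3* and *HNRNPA2B1* were smaller, at 0.48, 1.05 and 1.10 after median-ratio rescaling, where limma called *IGF2BP3* (adjusted p = 0.026) and not *IGF2BP2* (0.27) or *HNRNPA2B1* (0.11). Under the other 3 scalings run none of these rises was called, with adjusted p for *IGF2BP3* of 0.071 at the same summed FPKM, 0.068 after quantile normalization and 0.081 with totals over the shared genes. Their direction was higher in all 21 alternatives run. *IGF2BP3* was called in 18 of them, the other 3 being those scalings, *HNRNPA2B1* in 13 and *IGF2BP2* in 10. Without MII replicate 1, 2 or 3 only *IGF2BP3* was called, with adjusted p of 0.081 to 0.097 for *IGF2BP2* and 0.056 to 0.066 for *HNRNPA2B1*. The call of *IGF2BP2* was also lost without 8-cell replicate 2 (adjusted p = 0.094) or 3 (0.11). The untreated libraries were taken from earlier studies, and which of them gave which library is not stated, so stage and study cannot be told apart.

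**Figure D4:**
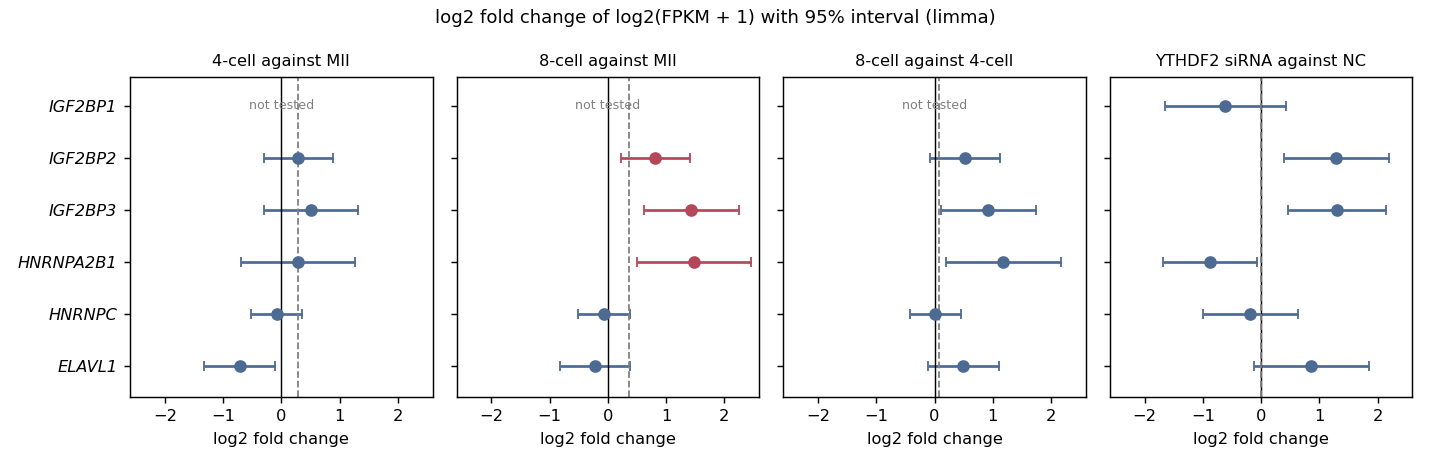
log2 fold change of each gene (x axis, points) with its 95% interval (bars) in the 4 comparisons (panels), from limma on log2(FPKM + 1), with red for an adjusted p under 0.05 and the dashed line at the median of all genes tested. In 8-cell embryos against MII oocytes *IGF2BP2*, *IGF2BP3* and *HNRNPA2B1* were called, and no member was called in the other 3 panels.

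Between the 8-cell and the 4-cell stage, 0 of 5 members were called, with 8.29% of all genes called, and voom on the recovered fragments also called 0. The unadjusted p was under 0.05 for 2 of them, *IGF2BP3* at a log2 fold change of 0.92 (adjusted p = 0.16) and *HNRNPA2B1* at 1.18 (0.13). *HNRNPA2B1* met the 2-fold rule, as did 8.83% of all genes and 4.55% in the higher direction. It no longer met that rule without 8-cell replicate 2 (0.65) or without 4-cell replicate 1 (0.89). *IGF2BP3* was at 0.49 without 8-cell replicate 1 and at 0.70 without 4-cell replicate 3, with an unadjusted limma p of 0.086 and 0.11. It was at 1.29 without 8-cell replicate 2 and at 1.10 without 4-cell replicate 2, with an unadjusted limma p of 0.0033 and 0.026. The latter 2 meet the 2-fold rule. *ELAVL1* was at 0.50 (0.30), *IGF2BP2* at 0.52 (0.26) and *HNRNPC* at 0.01 (0.97). Leaving out 1 library gave 0.29 to 0.75 for *ELAVL1* and 0.24 to 0.67 for *IGF2BP2*. No tested member had groups apart, where 28.2% of all genes had.

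**Figure D5:**
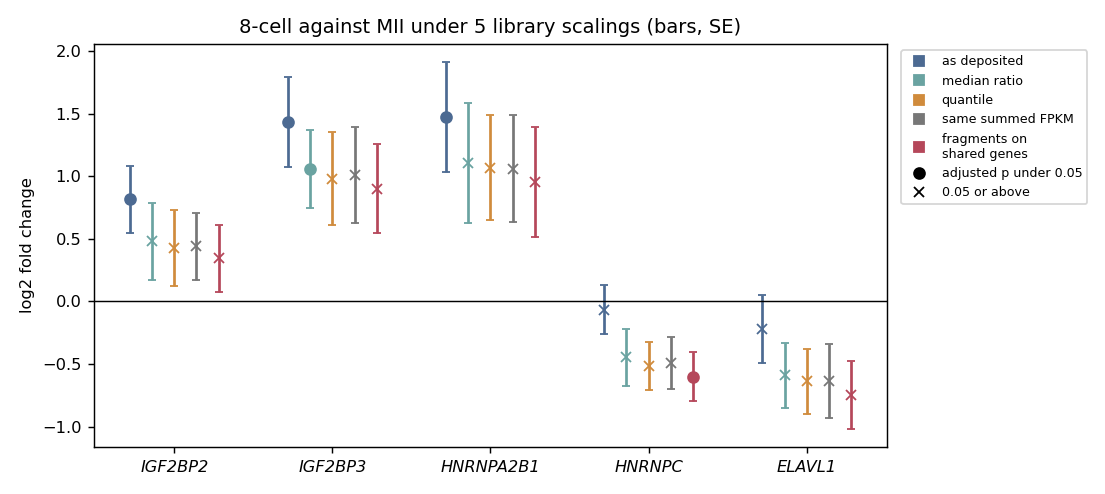
log2 fold change at the 8-cell stage against MII (y axis, bars are SE) of the 5 tested genes (x axis) with the FPKM as deposited and after 4 other scalings of the libraries (colours). *IGF2BP2*, *IGF2BP3* and *HNRNPA2B1* stayed above 0 and *HNRNPC* and *ELAVL1* below 0 in all 5, and circles mark an adjusted p under 0.05.

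The question of the injected libraries was what changes in 8-cell embryos when *YTHDF2* is reduced. The knockdown used a mixture of 2 siRNAs. Their antisense strands are shown from 5' to 3', since they are the agent that separates the groups, with bases 2 to 8 (the seed) in capitals.
s28148: uUGCUAGCaauaucagcccaa
s28147: uGGUCUAUaguauucaugcca
*YTHDF2* was at 112 and 159 FPKM in the NC libraries and at 8.07 and 4.47 FPKM in the knockdown libraries. Its log2 fold change was -4.25 (SE 0.43, limma adjusted p = 3.7e-04), which follows the labels.

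*IGF2BP2* and *IGF2BP3* were higher in both knockdown libraries than in both NC libraries. *IGF2BP3* was at 83.5 and 60.02 FPKM in NC and at 190.3 and 163.7 FPKM in knockdown embryos. *IGF2BP2* was at 4.43 and 3.34 FPKM in NC and at 11.5 and 10.3 FPKM in knockdown embryos. The log2 fold change was 1.31 for *IGF2BP3* (95% interval 0.47 to 2.14, limma adjusted p = 0.053) and 1.29 for *IGF2BP2* (0.39 to 2.20, adjusted p = 0.071). Both met the 2-fold rule and neither passed the adjusted threshold. Leaving out 1 library at a time gave 1.07 to 1.54 for *IGF2BP3* and 1.13 to 1.45 for *IGF2BP2*, with the lone library taken to vary like the other group. Without NC replicate 2 the unadjusted limma p of *IGF2BP2* was 0.055, so that it no longer met the 2-fold rule. The log2 ratio of *IGF2BP3* over *IGF2BP2* was 3.89 ± 0.10 in NC and 3.90 ± 0.05 in knockdown libraries (SD, n = 2), and the groups overlapped. Without the pseudocount it was 4.24 and 4.17 in NC and 4.05 and 3.99 in knockdown libraries, which do not overlap.

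*IGF2BP1* did not follow the other two. It was at 17.5 and 12.0 FPKM in NC and at 15.1 and 5.39 FPKM in knockdown embryos. The groups overlapped, and the log2 fold change was -0.61 (95% interval -1.66 to 0.43, limma adjusted p = 0.41). Knockdown replicate 2 was the lowest library, and without it the value was 0.05. Without knockdown replicate 1 it was -1.28, with an unadjusted limma p of 0.021 (adjusted p = 0.097), which meets the 2-fold rule in the lower direction. The share of *IGF2BP1* in the summed IGF2BP FPKM was 15.9 to 16.6% in NC and 3.00 to 6.96% in knockdown libraries, without overlap, while that of *IGF2BP3* was 79.2 to 79.6% and 87.7 to 91.2%. The log2 ratio of *IGF2BP3* over *IGF2BP1* was 1.92 higher, and that of *IGF2BP2* over *IGF2BP1* 1.90 higher, in knockdown libraries. The exact permutation p was 0.333 for each (two-sided), the smallest that 2 against 2 libraries allow.

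*HNRNPA2B1* lay lower in both knockdown libraries. It was at 329 and 443 FPKM in NC and at 230.1 and 187 FPKM in knockdown embryos, and the groups did not overlap. The log2 fold change was -0.88 (95% interval -1.68 to -0.07, limma adjusted p = 0.14), which missed both the adjusted threshold and the 2-fold limit. It was -1.09 without NC replicate 1 and -1.03 without knockdown replicate 1. Without knockdown replicate 2 it was -0.73, and without NC replicate 2 it was -0.66. *HNRNPC* was at 177 and 147 FPKM in NC and at 160.2 and 125 FPKM in knockdown embryos, overlapping, with a log2 fold change of -0.19 (-1.01 to 0.63). The log2 ratio of *HNRNPA2B1* over *HNRNPC* was 0.89 and 1.59 in NC and 0.52 and 0.58 in knockdown libraries. *ELAVL1* was at 34.6 and 18.0 FPKM in NC and at 33.6 and 63.6 FPKM in knockdown embryos. Its groups overlapped and its log2 fold change was 0.86 (-0.12 to 1.85, adjusted p = 0.23). It was 0.41 without NC replicate 2 or without knockdown replicate 2, and 1.32 without NC replicate 1 and 1.31 without knockdown replicate 1. The latter 2 meet the 2-fold rule, with an unadjusted limma p of 0.036 and 0.012 and an adjusted p of 0.16 and 0.067.

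In the knockdown, 0 of 6 members were called by limma, with a background of 7.98% of 11004 genes. The 95% interval of each of the 6 reaches past a 2-fold change in 1 direction, so the missing calls do not show that levels were alike. At an unadjusted p under 0.05 there were 3, *IGF2BP2*, *IGF2BP3* and *HNRNPA2B1*. The 2-fold rule held for 2 of 6, *IGF2BP2* and *IGF2BP3*, and for 24.8% of all genes, 9.48% in the higher direction. Groups were apart for 2 members in the higher and 1 in the lower direction, where 30.3% and 30.7% of all genes were apart. Limma adjusted p of *IGF2BP3* ranged from 0.037 to 0.27 over 14 alternatives, those other than crossed replicate numbers. It passed in 2 of them, at 0.039 with a minimum mean of 5 FPKM and at 0.037 with *TMSB4X* left out and the libraries set to one sum (log2 fold change 1.45). *TMSB4X* held 4.19 to 5.6% of the summed FPKM in NC and 10.3 to 13.1% in knockdown libraries.

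Markers of several kinds moved with these groups. The 8 listed oocyte markers summed to 461 and 685 FPKM in NC and to 896 and 1682 FPKM in knockdown libraries. The 8 listed cumulus and granulosa cell markers summed to 35.0 and 36.6 FPKM in NC and to 66.8 and 68.8 FPKM in knockdown libraries, *STAR* being the highest and *FSHR* at 0 in all 4. Summed activation markers overlapped, at 3278 and 4063 FPKM in NC and 3196 and 3563 FPKM in knockdown libraries. Of the listed genes *LEUTX*, the highest, *DUXA* and *ARGFX* overlapped. *KLF4*, *KLF5* and *KLF17* were lower in both knockdown libraries. *KLF5* was at 37.8 and 33.6 FPKM in NC and at 12.6 and 11.6 FPKM in knockdown libraries (limma adjusted p = 0.040). Markers of blastocyst lineages summed to 195 to 249 and 136 to 177 FPKM. The part of all these markers in the differences of *IGF2BP2*, *IGF2BP3* and *HNRNPA2B1* was not tested. In pooled embryos, fewer cells of a kind and less RNA per cell cannot be told apart.

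The injected and untreated 8-cell embryos, both labelled as 8-cell stage, are set side by side without a test, since the experiments share no group. *IGF2BP1* was at 0.102 to 0.595 FPKM in untreated 8-cell and at 12.0 to 17.5 FPKM in NC libraries, and its percentile was 29.5 to 46.6 and 79.1 to 81.7. *IGF2BP3* was at 368 to 1106 and at 60.02 to 83.5 FPKM, and its percentile 99.2 to 99.9 and 92.7 to 94.0. *IGF2BP2* was at 8.92 to 12.6 and at 3.34 to 4.43 FPKM, with percentiles of 74.1 to 81.4 and 62.4 to 63.4, and its knockdown level of 10.3 to 11.5 FPKM lay within the untreated range. *HNRNPA2B1* was at 43.3 to 149 and at 329 to 443 FPKM, with percentiles of 91.8 to 97.6 and 98.5 to 98.9. *HNRNPC*, at 163 to 242 and 147 to 177 FPKM, and *ELAVL1*, at 21.2 to 41.1 and 18.0 to 34.6 FPKM, overlapped between these libraries. The summed activation markers were 344 to 1392 and 3278 to 4063 FPKM, and the summed oocyte markers 2506 to 2844 and 461 to 685 FPKM. Study and injection differ together here and cannot be told apart.

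Genes around the members were taken as 5 lists of background knowledge, and each list is given by its counts. Of 9 tested genes for other proteins linked to m6A, 1 rose and 2 fell at the 8-cell stage against MII, where 37.4% of all genes were called. Under each of the 4 other scalings 1 rose and 4 fell. The median log2 fold change was 0.18 against 0.37 over all genes. *RBMX*, a splicing protein that binds marked RNA, rose by 2.06 (limma adjusted p = 9.0e-04), from 7.33 ± 1.45 to 33.4 ± 3.09 FPKM (SD, n = 3). *FMR1*, a repressor of translation in mRNA granules, fell by 2.55 on the log2 scale (adjusted p = 1.1e-04). *LRPPRC*, a regulator of mitochondrial mRNA, fell by 1.24 (0.015). It also fell by 2.29 in the knockdown (0.012), as 1 of 11 tested genes of that list, where 7.98% of all genes were called. All 3 stage calls and the knockdown call of *LRPPRC* held under each of the 4 other scalings run.

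Of 21 other hnRNP genes tested, 6 rose and 3 fell at the 8-cell stage against MII, where 37.4% of all genes were called and 27.3% called higher. After median-ratio rescaling 3 rose and 4 fell, and under the other 3 scalings 3 rose and 5 fell. *HNRNPDL* rose by 1.89 (limma adjusted p = 6.9e-04) and *HNRNPAB* by 1.58 (0.0026) on the log2 scale. *HNRNPH2* fell by 1.81 (0.0014) and *HNRNPL* fell by 1.28 (0.0048), and these 4 calls held under the 4 other scalings. All 4 encode regulators of splicing or of mRNA processing. In the knockdown 0 of 22 were called by limma, where 7.98% of all genes were, and 0 met the 2-fold rule, where 24.8% did. Of the 22, 1 had an unadjusted p under 0.05, and the median was -0.30 against 0.01 over all genes.

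Of 7 tested binders of AU-rich elements other than *ELAVL1*, 2 rose and 3 fell at the 4-cell stage against MII, also under the 4 other scalings, where 31.2% of all genes were called. *ELAVL2*, the closest in kind to *ELAVL1*, rose by 1.19 (limma adjusted p = 0.0012), from 58.2 ± 1.67 to 135 ± 26.4 FPKM, and *HNRNPD* (AUF1) by 1.47 (0.0014). *KHSRP* fell by 2.03 (0.021) and *ZFP36*, which brings mRNAs to deadenylation, fell by 1.22 (0.024). In the knockdown *ZFP36L1*, a relative of *ZFP36*, was higher by 1.47 (0.043) and *TIA1* fell by 1.73 (0.035). This was 1 gene of 10 in each direction, where 7.98% of all genes were called, and both calls were lost under 2 of 4 scalings. *TIA1* was low, at 3.16 ± 2.18 FPKM in NC and 0.175 ± 0.247 FPKM in knockdown libraries (SD, n = 2), where the 1 added to each FPKM weighs on the value.

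Of 7 tested partners found in IGF2BP granules, *ELAVL1* among them, 2 rose and 0 fell at the 4-cell stage against MII, where 31.2% of all genes were called, *MATR3* by 1.69 (limma adjusted p = 0.0047) and *SYNCRIP* by 1.11 (0.0021). Under each of the 4 other scalings 2 rose and 1 fell, the latter being *ELAVL1*. At the 8-cell stage, with 37.4% of all genes called, 1 rose and 1 fell. *STAU1* rose by 1.26 (0.018), a call that held under 1 of 4 other scalings, and *HNRNPU* fell by 0.71 (0.017). In the knockdown *DHX9*, an RNA helicase, fell by 2.08 (0.031), as 1 of 8 tested against 7.98% of all genes, and was called under 2 of 4 other scalings.

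Of 12 tested subunits of eIF3, a translation factor that can bind marked 5' UTRs, 3 rose and 2 fell at the 8-cell stage against MII, where 37.4% of all genes were called, with 0 to 2 rises and 2 to 3 falls under the 4 other scalings. *EIF3D* rose by 1.38 (limma adjusted p = 0.020) and *EIF3M* by 1.29 (0.0088), under 2 and 1 of the 4 other scalings, while *EIF3K* fell by 1.71 (0.026) and *EIF3L* fell by 0.43 (0.039), under all 4. In the knockdown *EIF3G* fell by 1.82 (0.019), 1 of 12 against 7.98% of all genes, a call lost after quantile normalization (0.052), and 6 of 12 met the 2-fold rule in the lower direction, where 15.3% of all genes did. The median of the list was -0.94 against 0.01 over all genes.

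The genes most like each member over the 9 untreated libraries are given as a description, by Pearson's r of log2(FPKM + 1). They were taken among genes that averaged 10 FPKM or more. *IGF2BP1*, outside the stage tests, was left out here and from the values between members. The points share stage, study and library scaling. *IGF2BP3* was most like *BRPF3* and *STAU1* (r = 0.98 each), *IGF2BP2* most like *PRKAR2A* (0.94) and *CDH7* (0.93), and *HNRNPA2B1* most like *DPPA4* (0.97) and *HNRNPA1* (0.96). *HNRNPC* was most like *EIF4E1B* (0.87) and *PKM* (0.83), and *ELAVL1* most like *COPA* (0.95) and *TRNAU1AP* (0.94). Between members r was highest for *IGF2BP2* with *IGF2BP3* (0.64) and lowest for *IGF2BP2* with *HNRNPC* (-0.60).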

How the data were processed

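The deposited tables hold FPKM per gene and library, made by the authors. Per the labels the cDNA was made by Smart-seq2, which primes on poly(A) tails. Per the methods of the study, reads were aligned to the goat genome ARS1 with HISAT2, uniquely placed reads were kept and counted with HTSeq, and each library was normalized to FPKM. Reads shared with near-identical copies of a gene, as hnRNP genes have, were thus not counted, and their number is not given in the sources used here. Injected values are rounded to 2 decimals. Repeated names were dropped, which left 18858 names for MII, 21826 for the embryos and 27121 for the injected libraries. No columns of values were left unused.

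Fragments behind each value, and the totals, were recovered from the FPKM steps of the untreated libraries, with a tolerance of 0.05 fragments, for 17911 of the 17918 shared genes above 0. The minimum taken as detection was 3 fragments. Genes averaging 1 FPKM or more were fitted on log2(FPKM + 1), 1 being the pseudocount, with limma 3.58.1 in R 4.3.3 (lmFit, eBayes with trend), 9 untreated libraries in 1 fit and 4 injected in another. A fold change on this scale understates the change of genes with low values. Adjusted p-values run over all genes of a fit. Ratios within a library were compared by exact permutation. Scripts were tested on simulated data. Python 3.11.15 with scipy 1.17.1 and matplotlib 3.10.9 was used otherwise.

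The members and lists were chosen with earlier results of these data known. Besides markers, named are all members, *YTHDF2*, and per list and comparison up to 2 called genes with the largest rise and fall. The 2 genes most like each member are named too, except for *IGF2BP1*. Replicate numbers were not taken as pairs. Deviations of same-numbered libraries correlated at -0.51 to 0.20 and those of other-numbered libraries at -0.37 to 0.51 (untreated). In the injected libraries these were -0.15 and 0.15, opposites by construction with 2 libraries per group. Whether numbers pair samples cannot be told from such values. Alternatives covered pseudocounts of 0.1 and 0.5, no filter and a mean of at least 5 FPKM, other scalings, no trend, a replicate block, the libraries of 1 comparison, and leaving out each library. Chosen after seeing the data were the fragments on shared genes as total, voom, *TMSB4X* left out, crossed replicate numbers, and the *IGF2BP1* fragment ratio without each library. All 6 members matched the RefSeq gene table of ARS1.2, used for names and neighbours, and no coordinates are given because the builds differ. A list of IGF2BP target mRNAs is not reported here.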

Additional observations from a re-analysis of the deposited data

How the results depend on the processing

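With the FPKM as deposited the numbers of called members were 0, 3, 0 and 0 in the 4-cell against MII, 8-cell against MII, 8-cell against 4-cell and knockdown comparisons. Against MII the 4-cell count became 1 after median-ratio rescaling, with the same summed FPKM, after quantile normalization or with the 6 libraries of the comparison, 2 with fragments on the shared genes as total, and 0 to 1 without 1 library (1 without 4-cell or 8-cell replicate 2). The 8-cell count became 1 after median-ratio rescaling (*IGF2BP3*) or with fragments on the shared genes (*HNRNPC*, lower), 2 without a filter (*IGF2BP3* and *IGF2BP1*), 0 with the same summed FPKM or quantile normalization, and 1 to 3 without 1 library (1 without any MII replicate). The knockdown count became 1 with a mean of at least 5 FPKM or with *TMSB4X* left out. Calls between the 8-cell and the 4-cell stage stayed at 0 under all settings run. Of all genes called at the 4-cell stage against MII 79.4% were higher, but 54.0% after median-ratio rescaling, 52.6% after quantile normalization, 42.1% with the same summed FPKM and 39.7% with fragments on the shared genes, and at the 8-cell stage 73.2, 50.6, 47.8, 48.1 and 40.8%. The cause of these shifts was not tested.

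Values against MII at the 4-cell stage turned to -0.18 for *IGF2BP2*, -0.027 for *IGF2BP3* and -0.23 for *HNRNPA2B1* with the same summed FPKM, to -0.19, -0.042 and -0.25 with fragments on the shared genes, and to -0.0013 (median-ratio) and -0.10 (quantile) for *HNRNPA2B1*. Leaving out 1 library gave -0.22 to 0.051 for *HNRNPC* at the 4-cell stage, -0.25 to 0.039 for *HNRNPC* and -0.43 to 0.034 for *ELAVL1* at the 8-cell stage against MII, and -0.16 to 0.15 for *HNRNPC* at the 8-cell against the 4-cell stage, where median-ratio rescaling gave -0.066. In the knockdown *HNRNPC* was at 0.070 after quantile normalization and *IGF2BP1* at -1.28 to 0.054 without 1 library. The ratio of *IGF2BP3* over *IGF2BP2* differed by -0.17 to 0.85 between 8-cell and 4-cell and by -0.059 to 0.087 between knockdown and NC without 1 library, or by -0.18 without pseudocount, and that of *IGF2BP2* over *IGF2BP1* by -0.12 to 0.32 between 8-cell and 4-cell libraries. The latter is set by the pseudocount, since *IGF2BP1* was under 1 FPKM there, and without it the ratio was 20.1 to 124 in the 8-cell libraries and 305 and 336 in the 4-cell libraries above 0.

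A replicate block left 2 members called at the 8-cell stage against MII, *IGF2BP3* and *HNRNPA2B1*, and 0 in the other 3 comparisons. It moved the calls of all genes from 754 to 311 between 8-cell and 4-cell and from 878 to 461 in the knockdown, and with crossed numbers these were 2107, with 2 members called. In the knockdown, calls of all genes also fell to 0 without a filter (2421 by the 2-fold rule), 430 after median-ratio rescaling and 286 after quantile normalization, and ranged from 303 to 1617 without 1 library. Between 8-cell and 4-cell they were 416 after median-ratio rescaling, 283 with the 6 libraries, 343 with all genes of both embryo tables and 238 to 649 without 1 library, and against MII 1820 to 3564 at the 4-cell stage. The depth of the injected libraries is unknown, and its effect on the knockdown was not tested.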
